A study of Mus musculus with 2 samples.

Results

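The genes described here encode the subunits, activators, inhibitor and assembly chaperones of the proteasome, as read on arrays of sorted mouse spleen B cells. They were chosen by symbol, as every gene whose name begins with Psma, Psmb, Psmc, Psmd, Psme, Psmf or Psmg followed by a digit and that had an array probe set annotated to it alone. The rule took 85 probe sets of 48 genes, out of 12393 genes with such a probe set. Of these, 46 genes had a signal above the floor on at least 1 array, and each is given by its brightest measured probe set, among 7695 measured genes in all. The testis-specific alpha subunit Psma8 (8.91 in marginal zone and 1.11 in follicular B cells) and Psmc3ip (4.85 in marginal zone and 8.89 in follicular B cells) stayed below the floor. Psmc3ip and Psme3ip1 match the rule by name but are no proteasome subunits: the first encodes a recombination factor and the other a protein that interacts with the product of Psme3. Psme2, the partner of Psme1 in an immunoproteasome activator, has no value here because its probe set is annotated to Psme2b as well. Psmb11, the thymic beta subunit, was not analysed here.

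The study compared marginal zone (MZ) B cells, which sit beside the marginal sinus and answer blood-borne antigen early, with follicular (FO) B cells, the recirculating majority. Each population had 1 Affymetrix array, so there is no replicate error, no test was made, and differences are given as sizes. Both groups were splenic B cells of wild-type female C57BL/6 mice, enriched with beads against B220. Marginal zone cells were gated as intermediate for CD23 and high for CD21, and follicular cells as high for CD23 and intermediate for CD21, with cells of 3 mice pooled before lysis. The labels give no age and do not tell whether the same animals gave both populations. Values are MAS5 signals on a linear scale after both arrays were brought to a common trimmed mean, and signals under a floor of 12.7, the median of all scaled values, were raised to that floor for ratios. A log2 ratio is marginal zone over follicular signal, so a positive one means higher in marginal zone B cells. In RNA from sorted pools, fewer cells with a transcript and less of it per cell cannot be told apart.

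The proteasome degrades proteins tagged with ubiquitin. Its 20S core is a barrel of outer alpha rings, which gate the entrance, and inner beta rings, of which Psmb5, Psmb6 and Psmb7 carry the cutting sites. The 19S particle caps the barrel: its base holds the ATPases that unfold substrates, and its lid removes ubiquitin. In lymphocytes and in cells exposed to interferon, Psmb8, Psmb9 and Psmb10 can take the places of the catalytic subunits, and the resulting immunoproteasome shifts the peptides made for MHC class I. NFE2L1 raises expression of proteasome genes when proteolysis falls short, and interferon acts through IRF1, among other factors, on the immunoproteasome genes.

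The promoter windows of the catalytic genes and of Psme1 are shown because the constitutive and the inducible subunits compete for the same places but answer to different factors. They come from RefSeq (GRCm38.p6), run from 250 bases before to 50 after the gene's start on the gene's strand, and carry matches in capitals to 3 short motifs searched on both strands. Those motifs were AANNGAAA (interferon regulatory factor core), TGACNNNGC (antioxidant response element core, which NFE2L1 and NFE2L2 bind) and CCAAT (the NF-Y box).
Psmb5, chr14:54617946-54618245, minus strand: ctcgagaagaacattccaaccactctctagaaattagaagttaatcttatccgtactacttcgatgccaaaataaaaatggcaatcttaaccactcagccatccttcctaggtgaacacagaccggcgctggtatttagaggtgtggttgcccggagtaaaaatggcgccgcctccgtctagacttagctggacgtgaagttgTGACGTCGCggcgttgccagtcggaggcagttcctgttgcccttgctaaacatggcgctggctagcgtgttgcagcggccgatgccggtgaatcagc
Psmb8, chr17:34197945-34198244, plus strand: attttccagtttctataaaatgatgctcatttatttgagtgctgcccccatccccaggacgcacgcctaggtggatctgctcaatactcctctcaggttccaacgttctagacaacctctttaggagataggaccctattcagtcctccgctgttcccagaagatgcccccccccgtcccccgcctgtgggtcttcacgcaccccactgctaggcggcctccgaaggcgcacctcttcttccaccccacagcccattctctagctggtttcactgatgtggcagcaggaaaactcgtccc
Psmb6, chr11:70525107-70525406, plus strand: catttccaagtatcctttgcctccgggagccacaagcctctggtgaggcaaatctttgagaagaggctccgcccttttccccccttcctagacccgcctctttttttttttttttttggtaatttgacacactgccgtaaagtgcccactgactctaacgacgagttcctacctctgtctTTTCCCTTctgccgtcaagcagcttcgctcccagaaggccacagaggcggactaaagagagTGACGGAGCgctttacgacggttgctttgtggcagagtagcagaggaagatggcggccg
Psmb9, chr17:34187281-34187580, minus strand: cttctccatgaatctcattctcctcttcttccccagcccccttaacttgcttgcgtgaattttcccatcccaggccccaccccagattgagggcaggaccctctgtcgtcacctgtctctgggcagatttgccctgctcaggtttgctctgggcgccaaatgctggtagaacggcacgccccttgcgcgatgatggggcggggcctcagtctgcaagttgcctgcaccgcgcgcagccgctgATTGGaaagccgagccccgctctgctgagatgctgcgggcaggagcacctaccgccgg
Psmb10, chr8:105938343-105938642, minus strand: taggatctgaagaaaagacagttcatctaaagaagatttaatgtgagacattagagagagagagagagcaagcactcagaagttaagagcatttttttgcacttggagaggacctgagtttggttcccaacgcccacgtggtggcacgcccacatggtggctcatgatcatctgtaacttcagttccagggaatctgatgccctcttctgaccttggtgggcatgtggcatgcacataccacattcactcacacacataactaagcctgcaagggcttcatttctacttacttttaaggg
Psme1, chr14:55578244-55578543, plus strand: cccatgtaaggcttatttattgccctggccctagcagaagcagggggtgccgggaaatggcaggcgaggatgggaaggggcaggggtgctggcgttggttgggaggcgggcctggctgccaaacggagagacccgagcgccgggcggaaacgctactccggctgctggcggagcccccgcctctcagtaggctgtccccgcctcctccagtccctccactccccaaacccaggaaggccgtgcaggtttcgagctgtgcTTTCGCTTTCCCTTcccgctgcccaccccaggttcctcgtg

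Counted from 1 at the 5′ end of each window, Psmb5 held an antioxidant response element core at bases 204 to 212, and Psmb6 held one at bases 242 to 250 and an interferon regulatory factor core at bases 181 to 188. The window of Psmb9 held a CCAAT box, read on the other strand, at bases 243 to 247. Psme1 held a pair of overlapping interferon regulatory factor cores, at bases 260 to 267 and 266 to 273. None of the 3 motifs was found in the windows of Psmb8 and Psmb10. The Psmb9 window shares 275 of its 300 bases with the window of Tap1, a peptide transporter gene that runs the other way. Windows were listed for 39 of the 46 measured genes, with Psmb1, Psmb2, Psmb7, Psmc3, Psmd3, Psmd7 and Psmg2 not listed. The interferon regulatory factor core stood in 13 of the 39 (33.3%), against 23.9% of 32851 windows in the whole table. A gene counted if any of its windows matched (42 windows for the 39 genes), whereas the whole table was counted by window. The antioxidant response element core was found in 6 genes (15.4%, against 12.4%), namely Psmb5, Psmb6, Psmc6, Psmd12, Psmd9 and Psme4, and CCAAT in 14 (35.9%, against 37.4%). All 3 shares lay within 10 percentage points of those of the whole table, and a match is a description of the letters only.

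Proteasome genes differed little between the populations. Of the 46 measured genes, 40 (87.0%) were within 1.5-fold, against 70.5% of all measured genes. There were 30 (65.2%) with a higher signal in marginal zone B cells, against 47.8% of all measured genes, and 16 with a higher signal in follicular B cells, a direction that 52.2% of all genes had. Psmd1, Psmd7, Psmd13 and Psme3 were at least 1.5-fold higher in marginal zone B cells, which is 4 of 46 where 13.7% of all genes passed. Psmg1 and Psmg3 were higher in follicular B cells by 1.5-fold or more, 2 of 46 where 15.8% of all genes passed. At 2-fold there were 0 of 46 in either direction, against 4.39% of all genes higher in marginal zone and 4.86% higher in follicular B cells. The median log2 ratio of the 46 was 0.10, against -0.03 for all genes, and the median absolute log2 ratio was 0.29, against 0.35. Many proteasome genes are bright, so the count was repeated among genes with a mean signal of at least 45.7, the 75th percentile of all values, a subset chosen after the data were seen. There 34 of 37 proteasome genes (91.9%) were within 1.5-fold, against 72.6% of 3527 genes. Of those 37, 24 were higher in marginal zone B cells (64.9%, against 48.8%), and their median absolute log2 ratio was 0.24, against 0.33.

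**Figure D1:**
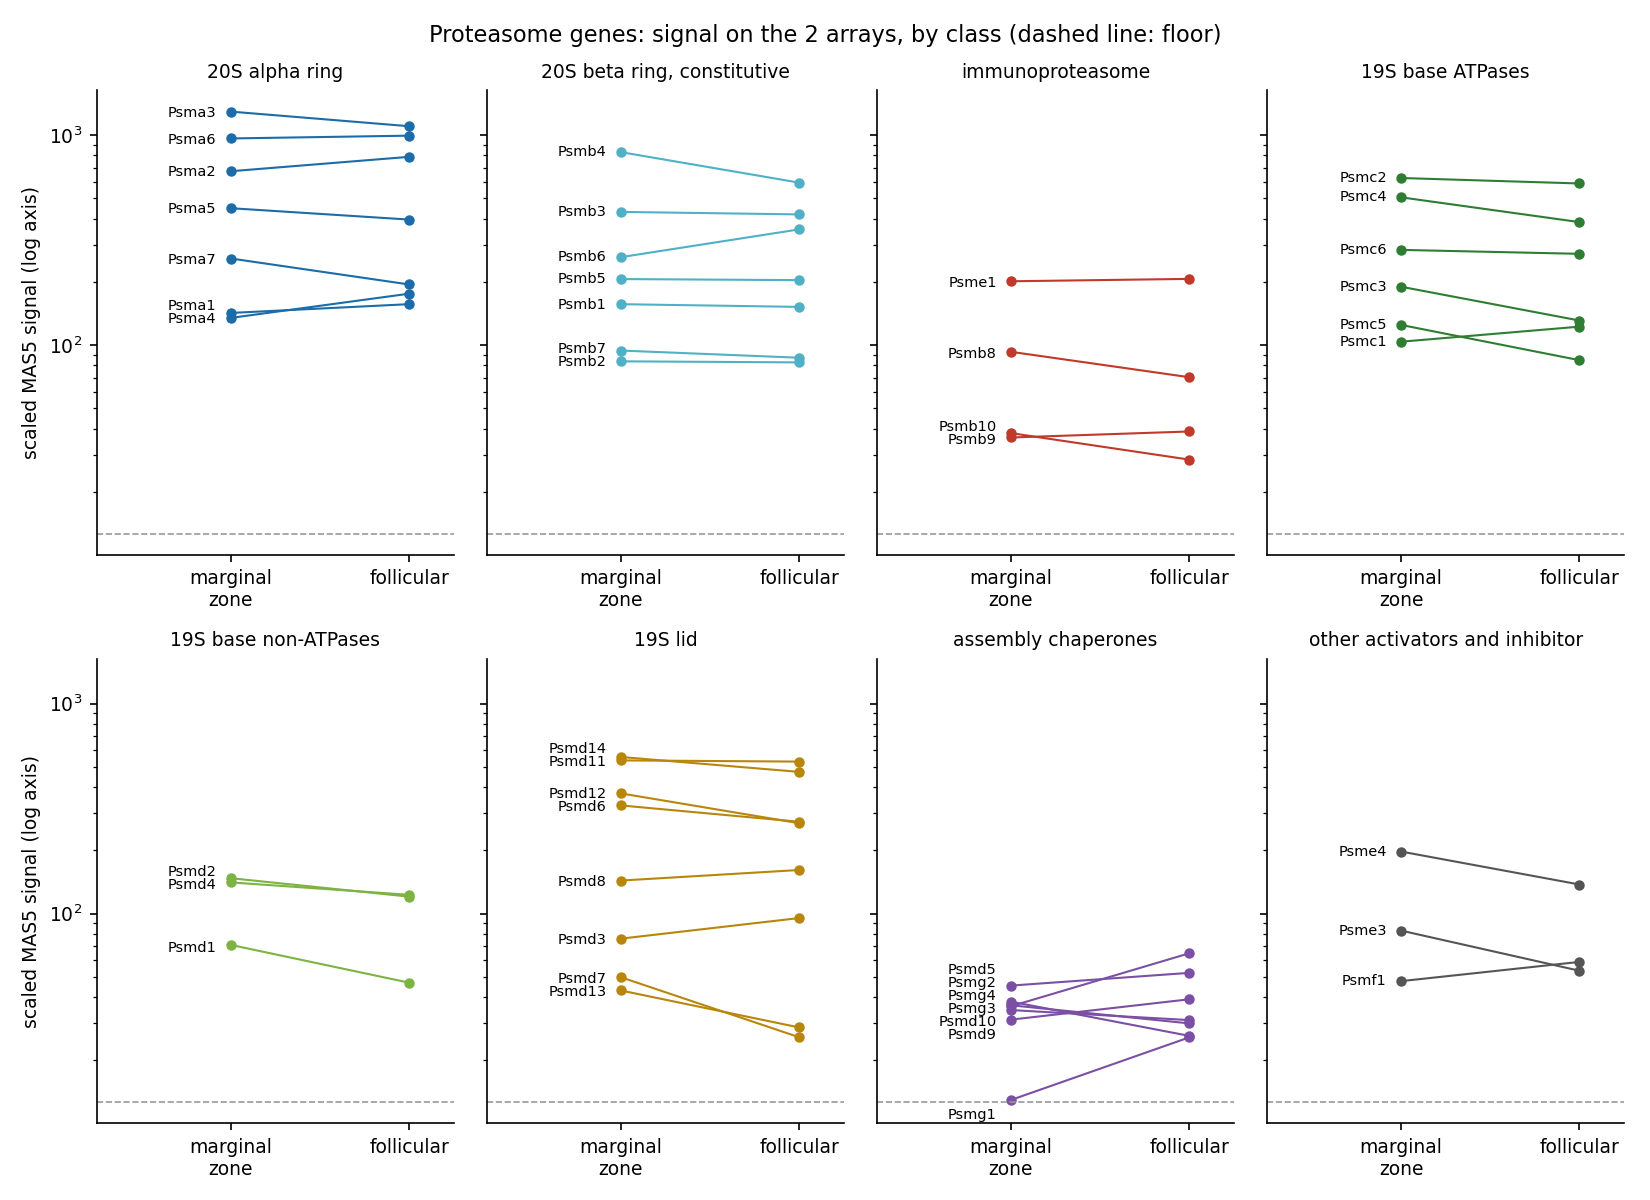
Scaled MAS5 signal (log axis) of each measured proteasome gene in marginal zone B cells (left) and follicular B cells (right), 1 array each, with a panel for each class and a dashed line at the floor of 12.7. Lines join the signals of 1 gene; most are close to level, and Psmg1, at 13.0 in MZ and 25.8 in FO cells, is the only gene drawn next to the floor.

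The alpha ring of the 20S core was split, with 3 of 7 measured genes higher in marginal zone and 4 higher in follicular B cells and a median log2 ratio of -0.04. Psma7 had a signal of 258.5 in marginal zone and 194.4 in follicular B cells (log2 ratio 0.41), the highest ratio of the ring. Psma4 had 134.8 in marginal zone and 175.8 in follicular B cells (-0.38), the lowest. These ring proteins are built into the barrel in equal numbers, and the log2 ratios of their transcripts ran from -0.38 to 0.41. Psma3 was at 1294 in MZ and 1102 in FO cells (0.23), Psma5 at 448.7 in MZ and 396.1 in FO cells (0.18), and Psma6 at 964.1 in MZ and 994.1 in FO cells (-0.04). Psma1 was at 142.3 in MZ and 156.7 in FO cells (-0.14) and Psma2 at 673.1 in MZ and 788.2 in FO cells (-0.23). Other probe sets of 3 of these genes gave another sign: -0.06 for Psma7, -0.49 for Psma5 and 0.54 for Psma6.

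Most constitutive beta subunits had nearly equal signals in both populations. Of the 7, 6 were higher in marginal zone B cells, where 47.8% of all measured genes were, yet the median absolute log2 ratio was 0.04. Psmb5, the chymotrypsin-like subunit, had 206.3 in marginal zone and 203.9 in follicular B cells (0.02). Psmb7, the trypsin-like subunit, had 94.2 in MZ and 87.1 in FO cells (0.11). Psmb6, the caspase-like subunit, stood apart from them with 262.4 in marginal zone and 355.9 in follicular B cells (-0.44), 1.36-fold higher in follicular cells. Among the beta subunits with no cutting site, Psmb1 (156.7 in MZ and 152.1 in FO cells), Psmb2 (83.7 in MZ and 82.8 in FO cells) and Psmb3 (430.9 in MZ and 419.2 in FO cells) had log2 ratios of 0.02 to 0.04. The other probe sets of Psmb1 gave -0.14 and -0.10, the latter below the floor in MZ cells, and that of Psmb3 gave -0.004. Psmb4 was at 829.8 in marginal zone and 593.7 in follicular B cells (0.48, 1.40-fold), and its other probe set gave 0.34. That gene's brighter probe set is of a kind (suffix x) whose probes may also match other transcripts, as are those used for Psma6 and Psmc2. The probe sets used for Psmd11 and Psme4 have suffix s and may likewise match other transcripts. Over the whole 20S core, 9 of 14 genes were higher in marginal zone B cells, against 47.8% of all measured genes, and the median was 0.03. All 14 were within 1.5-fold, against 70.5% of all measured genes.

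The immunoproteasome genes were split: the inducible catalytic subunits Psmb8 and Psmb10 were higher in marginal zone B cells, and Psmb9 and the activator subunit Psme1 were close to even. Psmb8 had a signal of 92.9 in marginal zone and 70.3 in follicular B cells (log2 ratio 0.40, 1.32-fold). Psmb10 had 38.1 in MZ and 28.5 in FO cells (0.42, 1.34-fold). Psmb9 had 36.3 in marginal zone and 38.8 in follicular B cells (-0.10), and Psme1 had 201.4 in MZ and 206.7 in FO cells (-0.04). The median over these 4 genes was 0.18, and none passed 1.5-fold. Each was measured by a single probe set, so no second probe set speaks to these ratios. Macrophages express immunoproteasome genes too, and the summed signal of the measured macrophage and monocyte markers was 209.6 in MZ and 83.8 in FO cells. Of these 9 markers, 6 were below the floor in FO cells and were counted through the MZ array alone, so their direction was fixed by the floor. The part of macrophages in the ratios of Psmb8 and Psmb10 was not tested.

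Each inducible subunit was set against the constitutive subunit whose place it takes, as a difference of log2 ratios, since levels of different probe sets cannot be compared. Psmb8 minus Psmb5 was 0.38, Psmb9 minus Psmb6 was 0.34 and Psmb10 minus Psmb7 was 0.31. In fold terms the inducible over constitutive balance was 1.31-fold, 1.27-fold and 1.24-fold higher in marginal zone than in follicular B cells for the beta5, beta1 and beta2 places. The 3 differences had like size but unlike make-up. Psmb8 and Psmb10 themselves had ratios above 0, beside 0.02 for Psmb5 and 0.11 for Psmb7, whereas Psmb9 was at -0.10 beside -0.44 for Psmb6. All 3 lie below the SD of 0.44 log2 units between probe sets of 1 gene, taken over 2622 genes with several measured probe sets, which is the nearest thing to a repeat measurement on these arrays.

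Genes that load peptides onto MHC class I were mixed. Of 11 measured genes, 5 were higher in marginal zone B cells, against 47.8% of all measured genes, and the median was -0.06. In FO cells 1 of the 11 was below the floor, so its direction was fixed by the floor. The peptide transporter genes, which lie beside Psmb8 and Psmb9 on chromosome 17, were lower: Tap1 had 95.4 in marginal zone and 123.8 in follicular B cells (-0.38), and Tap2 had 36.3 in MZ and 52.4 in FO cells (-0.53). Thus Psmb9 and Tap1, whose promoter windows overlap, had log2 ratios of -0.10 and -0.38, while Psmb8 had 0.40. Tapbp, the tapasin gene, was at 513.6 in MZ and 686.8 in FO cells (-0.42), with its other probe set at -0.01. The class I heavy chain gene H2-K1 was at 2125 in marginal zone and 1469 in follicular B cells (0.53), read by a probe set of suffix x that may also match other class I genes.

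Interferon receptors and factors that act on the immunoproteasome genes were all lower in marginal zone B cells, 8 of 8 measured genes, with a median of -0.63, where 52.2% of all genes were lower. Of the 8, the follicular signal was higher by 1.5-fold or more for 5 (15.8% of all genes) and by 2-fold or more for 2 (4.86% of all genes). Irf2 was below the floor in marginal zone B cells and was counted through the FO array alone, so its direction was fixed by the floor. Irf1, the transcription factor that drives the inducible subunits in interferon-treated cells, had 98.2 in marginal zone and 288.1 in follicular B cells (-1.55, 2.93-fold). Ifngr2, a chain of the interferon gamma receptor, had 58.1 in MZ and 177.1 in FO cells (-1.61, 3.05-fold), while its other probe set gave -0.26. Irf9, a factor of the response to type I interferon, had 45.0 in MZ and 77.5 in FO cells (-0.78), and the receptor kinase gene Jak1 had 218.8 in MZ and 341.4 in FO cells (-0.64), with 3 probe sets between -0.82 and -0.64. The genes they are known to act on, Psmb8, Psmb9, Psmb10 and Psme1, ran from -0.10 to 0.42.

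**Figure D2:**
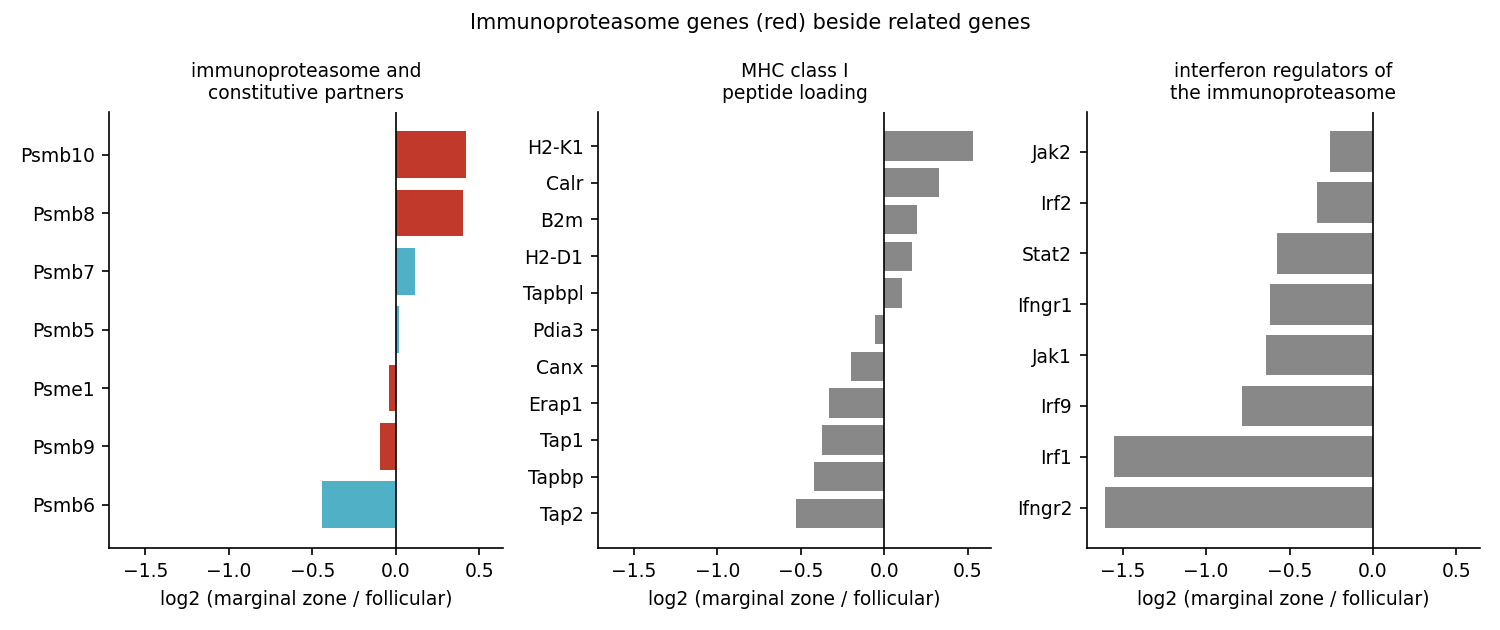
Marginal zone over follicular signal as a log2 ratio for the immunoproteasome genes (red) with their constitutive partners (blue), for MHC class I peptide loading genes and for interferon regulators (grey). Psmb8 and Psmb10 lie to the right of 0 at 0.40 and 0.42, whereas all 8 interferon regulators lie to the left, down to -1.61 for Ifngr2. Irf2 was below the floor in MZ cells, so its side was fixed by the floor.

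Most genes of the 19S particle had a higher signal in marginal zone B cells, 14 of 17 (82.4%, against 47.8% of all measured genes). Their median log2 ratio was 0.26, against -0.03 for all genes. Of the 6 ATPases, 5 were higher in marginal zone B cells and the median was 0.24. Psmc5 had 124.8 in marginal zone and 84.8 in follicular B cells (0.56, 1.47-fold), and Psmc3 had 189.7 in MZ and 131.0 in FO cells (0.53, 1.45-fold). Both were measured by a single probe set. Psmc4 had 505.6 in MZ and 385.3 in FO cells (0.39), and its other probe set gave 0.17. Psmc2 was at 624.9 in MZ and 588.5 in FO cells (0.09) and Psmc6 at 284.1 in MZ and 272.1 in FO cells (0.06), so these were close to even. The 3 probe sets of Psmc6 disagreed, from -0.84 to 0.65, the lowest with an MZ signal of 9.60, below the floor. Psmc1, with 103.8 in marginal zone and 122.5 in follicular B cells (-0.24), was the only ATPase higher in follicular cells. The ring of 6 ATPases that threads substrates into the core thus held ratios from -0.24 to 0.56.

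The 3 base subunits that are no ATPases were all higher in marginal zone B cells, where 47.8% of all measured genes were. Psmd1, a large scaffold of the base, had 71.0 in MZ and 46.9 in FO cells (0.60, 1.51-fold). Psmd2, the docking platform for shuttle factors, had 147.5 in marginal zone and 120.4 in follicular B cells (0.29). Psmd4, a receptor for ubiquitin chains, had 140.8 in MZ and 122.9 in FO cells (0.20), with 3 probe sets from -0.61 to 0.23.

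Of the 8 lid subunits, 6 were higher in marginal zone B cells, where 47.8% of all measured genes were, with a median of 0.25. Psmd7 had the highest log2 ratio of all proteasome genes, 0.95, from 49.8 in marginal zone and 25.8 in follicular B cells (1.93-fold). Its other probe sets gave 0.90 and 0.17. The latter was counted through the MZ array alone (14.3 in MZ and 6.57 in FO cells), so its sign was fixed by the floor. Psmd14, the deubiquitinase that works as a pair with the product of Psmd7, had 557.0 in MZ and 473.0 in FO cells (0.24). Psmd13 had 43.1 in marginal zone and 28.7 in follicular B cells (0.59, just past 1.5-fold) and 0.94 from its other probe set. Psmd12 had 373.7 in MZ and 269.4 in FO cells (0.47), and Psmd6 had 327.5 in MZ and 273.7 in FO cells (0.26, other probe set 0.23). Psmd11, which helps hold the 19S particle on the core, was even at 536.6 in MZ and 529.6 in FO cells (0.02). Its 5 probe sets ran from -0.14 to 0.52, the highest with an FO signal just below the floor, so that sign was fixed by the floor. Psmd8 (143.7 in MZ and 161.4 in FO cells, -0.17) and Psmd3 (76.0 in MZ and 95.3 in FO cells, -0.33) were the lid genes higher in follicular B cells. Psmd7 and Psmd13 had mean signals below 45.7, the 75th percentile of all values, and no other lid gene did.

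**Figure D3:**
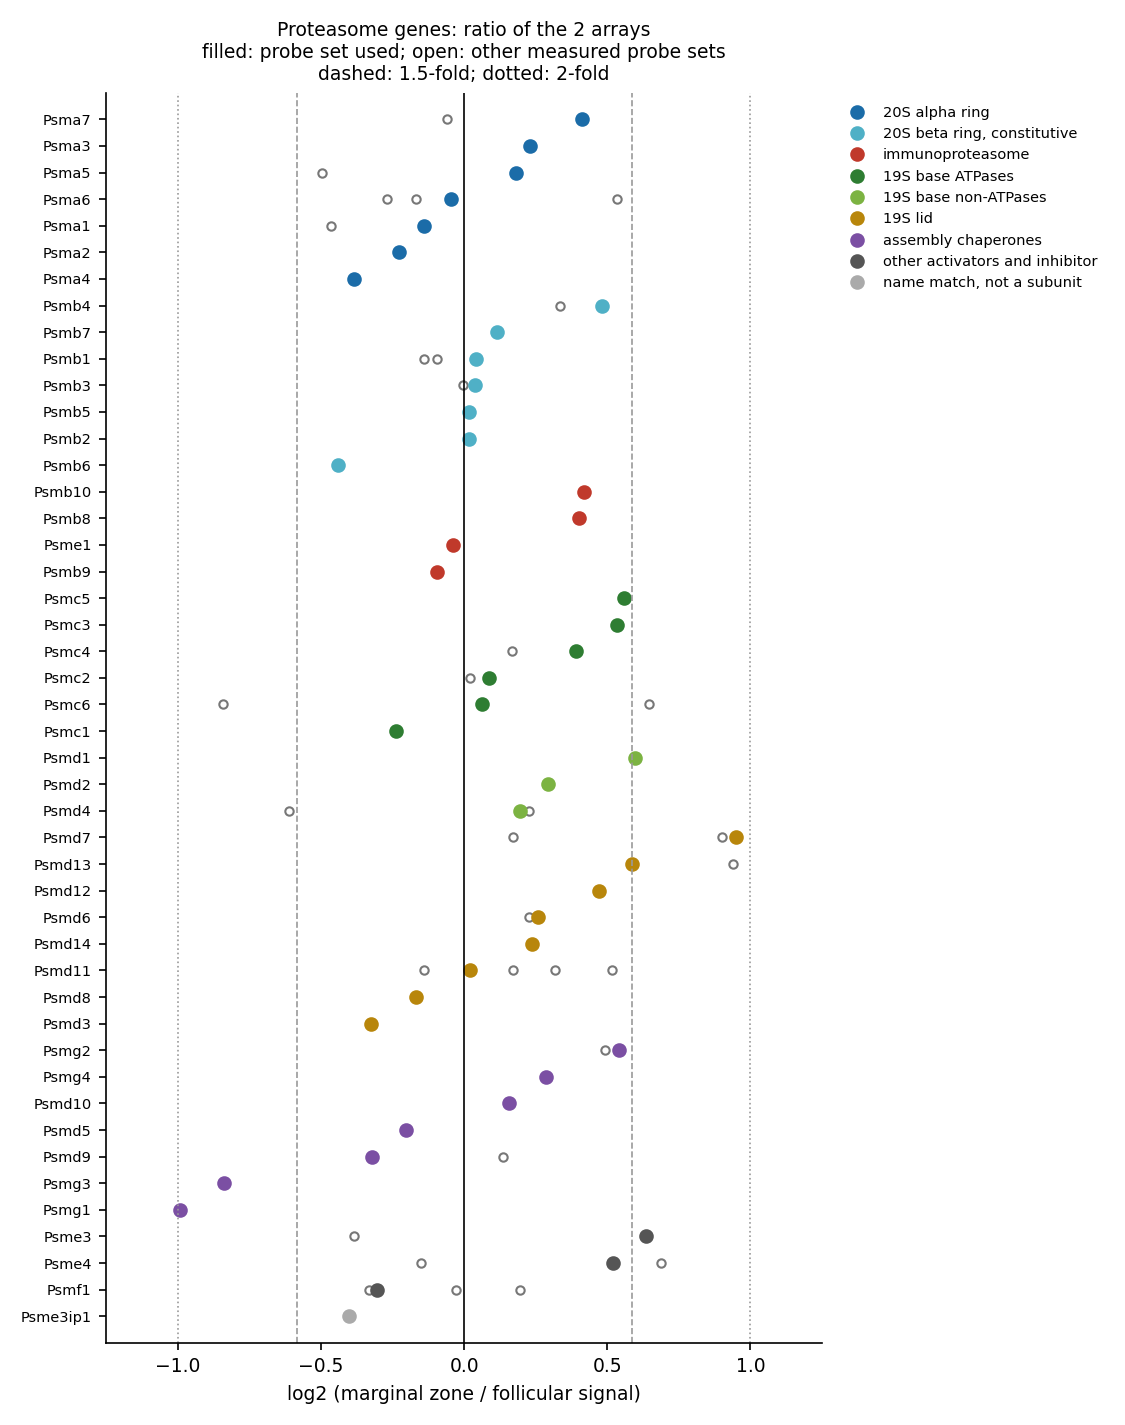
Marginal zone over follicular signal as a log2 ratio for each of the 46 measured genes, coloured by class; filled points are the probe set used and open points the other measured probe sets of that gene. Most filled points lie inside the dashed 1.5-fold lines and none passes the dotted 2-fold lines. Open points of several genes, Psmc6, Psmd4 and Psme3 among them, fall on the other side of 0.

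Assembly chaperones had the widest spread of any class, from -0.99 to 0.54, with 3 of 7 higher in marginal zone B cells and a median of -0.20. These proteins put the rings together and then leave. Psmg1 had 13.0 in marginal zone and 25.8 in follicular B cells (-0.99, 1.99-fold), with the marginal zone signal just above the floor. Psmg2, which forms a dimer with the product of Psmg1 in alpha ring assembly, had 38.1 in MZ and 26.2 in FO cells (0.54). Its other probe set gave 0.49 with an FO signal of 5.66, below the floor, so that sign was fixed by the floor. Psmg3 had 36.2 in marginal zone and 64.8 in follicular B cells (-0.84, 1.79-fold), whereas Psmg4, its dimer partner, had 36.6 in MZ and 30.0 in FO cells (0.29). In both dimers, then, the partners' transcripts differed in direction. Among the chaperones of the 19S base, Psmd10 was at 34.7 in MZ and 31.1 in FO cells (0.16), Psmd5 at 45.4 in MZ and 52.2 in FO cells (-0.20) and Psmd9 at 31.3 in MZ and 39.1 in FO cells (-0.32, other probe set 0.13). The mean signals of the 7 ran from 18.3 to 48.7, not far above the floor.

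The nuclear activators Psme3 and Psme4 were higher in marginal zone B cells by their brightest probe sets, and other probe sets of each gave the opposite sign. Psme3, which forms a nuclear activator, had 83.0 in marginal zone and 53.5 in follicular B cells (0.64, 1.55-fold), but a second probe set gave -0.38. Psme4, the nuclear activator PA200, had 197.5 in MZ and 137.6 in FO cells (0.52), with 3 probe sets from -0.15 to 0.69. Psmf1, an inhibitor of the 20S core in vitro, had 47.7 in MZ and 58.9 in FO cells (-0.30), with 4 probe sets from -0.33 to 0.20. The lowest had an MZ signal of 1.78, below the floor, so that sign was fixed by the floor. Psme3ip1, the protein that binds the product of Psme3, was at 55.7 in MZ and 73.7 in FO cells (-0.40).

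**Figure D4:**
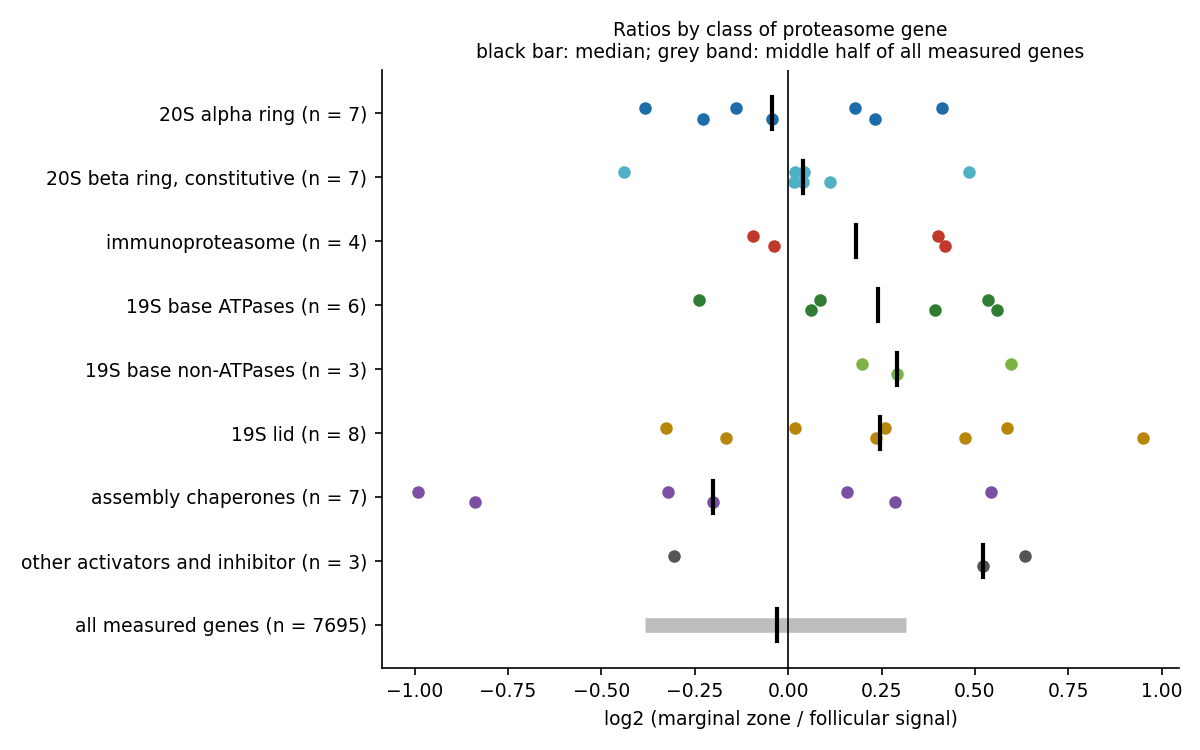
Marginal zone over follicular signal as a log2 ratio of each proteasome gene by class (points), with the class median (black bar) and, in the bottom row, the median and interquartile band of all 7695 measured genes. Medians of the 3 classes of 19S genes stand at 0.24 to 0.29, those of the alpha and constitutive beta rings at -0.04 and 0.04.

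Probe sets of the same gene agreed only loosely. Of the 20 proteasome genes with several measured probe sets, 11 (55.0%) had the same sign in the brightest probe set and in the mean of the others, against 68.2% of all such genes. The SD between probe sets was 0.36 log2 units for these 20 genes, against 0.44 for all 2622. The SD of the log2 ratios over the 46 proteasome genes was 0.39, which lies between them. Of the 6 genes past 1.5-fold, 3 had other probe sets: Psmd7 and Psmd13 kept their sign in the mean of those, and Psme3 did not.

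Proteasome parts and partners with other names had 6 of 10 measured genes higher in marginal zone B cells and a median of 0.03. Of all measured genes, 47.8% were higher there. Sem1, a small lid subunit, had 777.4 in marginal zone and 549.1 in follicular B cells (0.50). Akirin2, which brings proteasomes into the nucleus in human cells, had 93.1 in MZ and 180.8 in FO cells (-0.96, 1.94-fold). Ecpas, a proteasome adaptor, had 22.9 in MZ and 33.2 in FO cells (-0.54), and Uchl5, a deubiquitinase of the 19S particle, had 57.3 in MZ and 71.9 in FO cells (-0.33). So Sem1 lay on the side of most lid genes and the other 3 did not.

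Regulators of proteasome genes were lower in marginal zone B cells in 6 of 7 measured cases, where 52.2% of all genes were lower, with a median of -0.33. Nfe2l1 had 40.0 in marginal zone and 50.8 in follicular B cells (-0.35). Of the NF-Y subunits, Nfyb had 19.7 in MZ and 40.8 in FO cells (-1.05), though a second probe set gave 0.50. Nfyb was the only one of the 7 past 2-fold, where 4.86% of all genes were 2-fold or more higher in follicular B cells. Nfyc had 225.6 in MZ and 282.8 in FO cells (-0.33). Stat3, a transcription factor of cytokine signalling, had 154.4 in MZ and 220.5 in FO cells (-0.51). Thus the regulators and the 19S genes had medians of opposite sign, -0.33 and 0.26.

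Ubiquitin genes and shuttle factors, which bring tagged proteins to the proteasome, had 5 of 8 measured genes higher in marginal zone B cells and a median of 0.11. Of all measured genes, 47.8% were higher in marginal zone B cells. Rad23b had 237.3 in marginal zone and 154.6 in follicular B cells (0.62), with 1.03 from its other probe set. Ubqln2 and Ubqln4 lay on the other side, at 120.1 in MZ and 205.9 in FO cells (-0.78, other probe set -0.28) and at 18.8 in MZ and 29.5 in FO cells (-0.65). Ufd1, a cofactor of the unfoldase VCP, had 81.8 in MZ and 63.4 in FO cells (0.37), but -0.56 from its other probe set. Ubqln1 had 173.7 in MZ and 167.4 in FO cells (0.05, other probe set 0.42) and was named after its values were seen. The ubiquilin genes thus differed in direction among themselves. The probe sets used for Rad23b and Ubqln1 have suffix s and may also match other transcripts.

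The gate genes ran with the labels. Cr2, the gene of CD21, had 889.8 in marginal zone and 277.9 in follicular B cells, and Fcer2a, the gene of CD23, had 89.6 in MZ and 726.8 in FO cells. All 5 measured B cell markers were above the floor on both arrays. Of those 5, 2 were higher in MZ and 3 in FO cells, with a median of -0.32, and Cd79a had 115.6 in MZ and 196.7 in FO cells (-0.77). Of 12 macrophage and monocyte markers, 9 were measured, and 6 of the 9 were below the floor in FO cells, so that they were counted through the MZ array alone and their direction was fixed by the floor. Of the other 3, Csf1r had 42.5 in MZ and 17.3 in FO cells, Lyz2 had 25.2 in MZ and 12.9 in FO cells, and Adgre1 had 24.9 in MZ and 23.7 in FO cells. C1qa, C1qc and Hmox1 were below the floor on both arrays. The part of such cells in the ratios of the 19S and other genes was not tested. Summed signals of the measured markers were 47.4 in MZ and 32.7 in FO cells for dendritic cells. They were 3.27 in MZ and 31.1 in FO cells for T and NK cells, and 15.1 in MZ and 23.6 in FO cells for neutrophils. Both measured T and NK markers were below the floor in MZ cells, and 2 of the 3 dendritic markers were below it in FO cells. Of the 2 neutrophil markers, 1 was below the floor in MZ and 1 in FO cells. The direction of each such marker was fixed by the floor. Both measured erythroid markers were below the floor in MZ cells, with sums of 11.2 in MZ and 31.4 in FO cells. Plasma cell markers summed to 1249 in MZ and 1030 in FO cells. Among them, Xbp1 had 658.9 in MZ and 396.6 in FO cells, with 4 probe sets from -0.98 to 0.73. Some markers went opposite ways: Prdm1 had 30.9 in MZ and 12.7 in FO cells (1.28), and Sdc1 was higher in FO cells. Sdc1 had 4.35 in MZ, below the floor, and 68.3 in FO cells (-2.43 against the floor). Its 3 probe sets ran from -2.43 to -0.32.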

How the data were processed

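The authors deposited 1 signal intensity per probe set and array. The values are MAS5 signals, per the submitters' processing notes, which name no version; the scaling target is unknown here. Both arrays were scaled here to a common 2% trimmed mean (factors 0.990 for marginal zone and 1.01 for follicular B cells), with the median of all values, 12.7, as the floor. A probe set was measured if either signal exceeded the floor (12847 of 22626 were). Of the probe sets, 20380 were annotated to 1 gene, 691 to several and 1555 were not listed. A gene was represented by the measured probe set of highest mean log2 signal. All 85 proteasome probe sets matched RefSeq by Entrez identifier, and 0 symbols needed an update. Every measured proteasome gene could be named, and of each other list up to 4 genes with the largest absolute log2 ratio. The genes and lists were chosen with earlier results of these data known. With 1 array per group no p-value exists, and the number of arrays limits the precision. Labelling took 2 cycles from about 100 ng of RNA. The procedure was tested on simulated data with changes of 2-fold or more planted in genes well above the floor. Smaller planted changes, and changes in genes near the floor, were not simulated. Alternatives were other scalings, floors, a pseudocount, probe set rules and thresholds. Python 3.11.15, pandas 2.3.3, numpy 2.4.6 and matplotlib 3.10.9 were used.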

Additional observations from a re-analysis of the deposited data

How the results depend on the processing

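No paired analysis was possible because there was 1 array per group. The count of proteasome genes higher in marginal zone B cells by 1.5-fold or more (4) became 7 after median scaling, 2 with the floor at the 75th percentile and 1 with a pseudocount instead of a floor. The count higher in follicular B cells by as much (2) became 0 with that floor, 1 with the pseudocount and 1 with the second brightest probe set. With 1.5-fold in place of 2-fold, the counts of 0 and 0 became 4 and 2. The median of other activators and inhibitor (0.52) was 0.13 with the mean of all probe sets. The second brightest probe set, which only 20 proteasome genes have, gave medians over fewer genes than the main ones. It gave the opposite sign for base non-ATPases (-0.61, from Psmd4 alone), assembly chaperones (0.31, from Psmg2 and Psmd9 alone), the 20S core (-0.14), Psma5 (-0.49), Psma7 (-0.06), Psmd9 (0.13), Psme3 (-0.38), Psmf1 (0.20), Nfyb (0.50) and Ufd1 (-0.56), among others. It moved the medians of the alpha ring to -0.32, the lid to 0.56, other activators and inhibitor to 0.20, regulators to -0.019, ubiquitin genes and shuttle factors to 0.42, MHC class I loading, at -0.06 before, to 0.34 and interferon regulators to -0.26. Beyond the fewer genes, the cause was not tested. Psmd7 passed 2-fold after median scaling (1.00) and was at 0.12 with the floor at the 75th percentile; Psma8 passed 2-fold with the floor at the 25th percentile. The median of all genes stayed between -0.03 and 0.02, and the share of proteasome genes higher in marginal zone B cells between 58.7% and 69.6%. Analyses of bright genes and without probe sets of suffix x or s were chosen after seeing the data. Dim signals near the floor limit the chaperones most.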
